A study of Mus musculus with 45 samples.

Results

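Day-12 embryoid bodies (EBs) grown from mouse embryonic stem cells (ESCs) labelled as silenced for Strip2 (KD) were compared with day-12 EBs of a scrambled control line (SCR). The comparison rests on 6 of the 45 arrays of the series, 3 of each line, and on the 34945 of 45037 probe sets that carried a single gene symbol. One probe set was kept for each of 18193 genes. The same day also holds 3 arrays of untransfected wild-type (WT) EBs, which are given beside the pair, and ESCs (day 0) and EBs of 4, 8 and 16 days of each line were used where the course in time bears on a value. All lines are labelled as male cells of strain 129, each is a single line, and EBs were formed in hanging drops. The labels name neither the construct that silences Strip2 nor how many clones it was taken from, and nothing in them says that the 3 arrays of a group came from separate cultures, so a p-value here speaks only for the spread of these arrays, which may be technical.

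EBs are aggregates in which stem cells, released from the factors that hold them undifferentiated, form derivatives of the germ layers: beating cardiomyocytes, connective tissue, vessels, blood, yolk-sac-like endoderm and some neural cells. Undifferentiated ESCs are held in their state by a network of transcription factors around Pou5f1, Sox2 and Nanog, which is shut down as differentiation proceeds. Strip2, known earlier as Fam40b, encodes a component of STRIPAK complexes, in which striatins scaffold the phosphatase PP2A and germinal-centre kinases.

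Levels are the deposited log2 signals, on which a difference of 1 is a factor of 2, and every difference below is KD-labelled minus SCR unless another pair is named. Array medians were 5.06, 5.05 and 5.07 in KD-labelled EBs and 5.1, 5.11 and 5.14 in SCR EBs. Across probe sets, the KD-labelled arrays correlated with each other at 0.9897 to 0.9961 and the SCR arrays at 0.993 to 0.9948, against 0.9054 to 0.9227 between the lines. WT array 2 correlated with the SCR arrays at 0.9909 to 0.9928 and with the other arrays of its own group at 0.9898 and 0.9914, and results that use WT are given with this array and, where it matters, without it. The first 8-day array of each line is an EB sample by its title but carries an ESC tag in another label. It was kept with the EBs: over probe sets these arrays correlated with the other 8-day arrays of their line at 0.9937 and 0.9954 (KD-labelled), 0.9881 and 0.9925 (SCR) and 0.9923 and 0.9949 (WT), and with its ESCs at no more than 0.9741, 0.9052 and 0.8977. The values carry no detection calls, so a low level cannot be told from background and the fold against it may be understated.

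The single Strip2 probe set read 3.84, 3.86 and 3.55 in KD-labelled EBs and 4.67, 4.88 and 4.46 in SCR EBs, against 3.15, 3.23 and 2.98 in WT EBs. KD-labelled minus SCR was -0.92 (SE 0.19, limma adjusted p = 1.0e-04), but KD-labelled EBs lay above WT EBs by 0.63 (adjusted p = 0.0061). At day 8 KD-labelled minus SCR was 0.04, so the lower level against SCR did not hold at every stage. Since silencing was not visible against WT, the line is called KD-labelled throughout. Marker genes were read to see which cells the EBs held. The pluripotency marker Zfp42 read 11.81, 11.64 and 11.67 in KD-labelled EBs and 4.12, 3.97 and 5.42 in SCR EBs. Tnnt2, troponin T of cardiomyocytes, read 3.64, 3.95 and 3.76 in KD-labelled EBs and 12.45, 11.81 and 12 in SCR EBs. Col3a1, a fibroblast collagen, read 6.1, 5.7 and 6.28 in KD-labelled EBs and 13.91, 14.11 and 14.05 in SCR EBs. These 3 genes are among the largest rises and falls, so their difference was fixed by the choice, and only their levels describe the EBs: the mesoderm markers were high and the pluripotency marker low in SCR EBs.

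With limma across all groups and Benjamini-Hochberg adjustment over the 18193 genes, 10115 genes (55.6%) differed between KD-labelled and SCR EBs of day 12 at an adjusted p under 0.05. Of these, 5633 (31%) were higher and 4482 (24.6%) were lower in KD-labelled EBs. The change reached 2-fold in 3913 genes (21.5%), 1854 (10.2%) higher and 2059 (11.3%) lower. With all 34945 probe sets tested 17893 (51.2%) were called. At 8-fold, 220 genes were higher and 381 lower, and at 64-fold 19 were higher and 34 lower. All 3 KD-labelled arrays lay above all 3 SCR arrays for 6561 genes (36.1%) and below them for 4933 (27.1%), so the lines did not overlap for 63.2% of genes. As deposited, 55.7% of the calls were rises. Cyclic loess lowered that share to 49.1% and median centring raised it to 64.3%, so the split between rises and falls rests on the scaling. The median difference over all genes was 0.10 as deposited, 0.19 after centring and 0.0052 after cyclic loess.

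**Figure D1:**
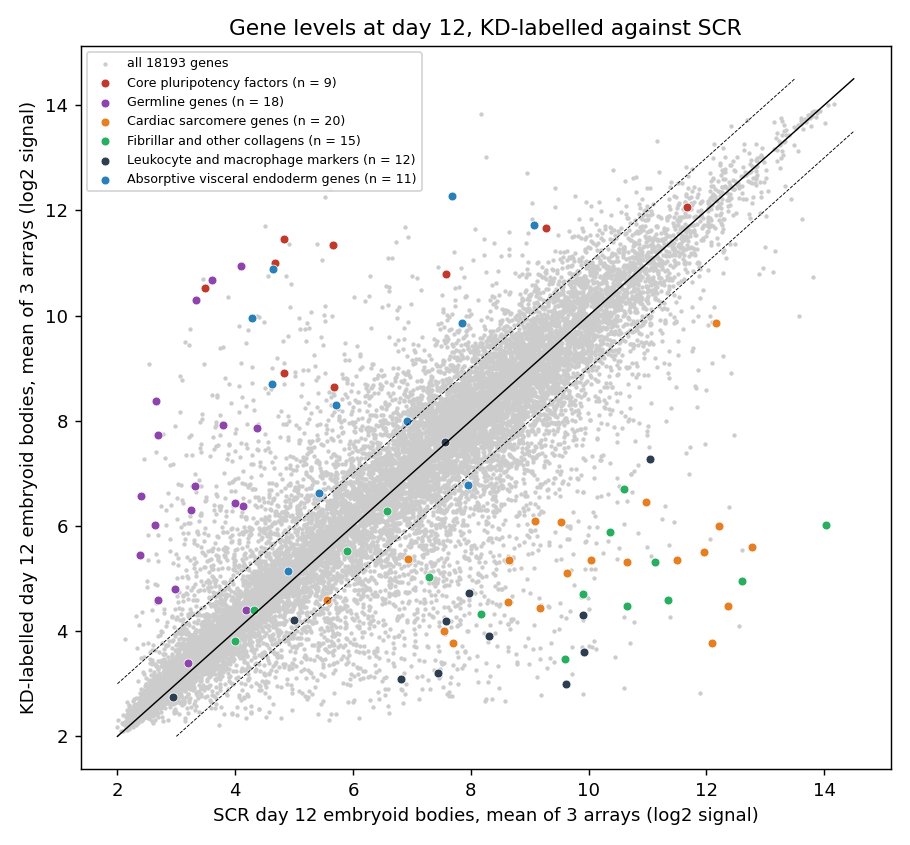
Mean log2 level of each of 18193 genes in KD-labelled EBs (vertical axis) against SCR EBs (horizontal axis) at day 12, 3 arrays each, with 6 gene lists in colour, the line of equal levels solid and the 2-fold lines dashed. Core pluripotency and germline genes lie above the solid line, cardiac sarcomere genes below it, and most collagens and leukocyte markers far below it.

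The largest rises were mostly genes known from ESCs or from germ cells. Sycp3, part of the synaptonemal complex that joins paired chromosomes in meiosis, read 11.11, 10.72 and 10.97 in KD-labelled EBs and 4.23, 3.75 and 4.31 in SCR EBs, 114-fold higher (log2 6.84, SE 0.31, limma adjusted p = 5.3e-20). Morc1, a germline repressor of transposons, read 10.21, 10.39 and 10.3 in KD-labelled EBs and 3.12, 3.23 and 3.64 in SCR EBs (log2 6.97). Srgn, the core protein of an intracellular proteoglycan of secretory granules, read 12.51, 12.26 and 12.47 in KD-labelled EBs and 5.72, 5.78 and 5.31 in SCR EBs, and it was also higher in KD-labelled than in SCR ESCs, by 1.30. In each of these 3 genes all KD-labelled arrays lay above all SCR arrays, as the naming rule required, and the arrays of a line lay close together. L1td1, an RNA-binding protein of pluripotent cells, differed by 6.73, Tdgf1, the co-receptor of Nodal, by 6.63, and Nr0b1, a nuclear receptor that lacks a DNA-binding domain and belongs to the naive network, by 6.51. Crxos, a homeobox gene of the early embryo, read 9.15, 9.01 and 9.08 in KD-labelled EBs and 2.53, 2.66 and 2.44 in SCR EBs and was also higher in KD-labelled ESCs, by 3.56. In the SCR EBs, array 3 was the highest for several of these genes: Tdgf1 read 3.92, 4.44 and 6.13 and L1td1 4.74, 5.42 and 6.41.

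Heart muscle genes (Tnnt2, Actc1 and Myl2) and connective tissue genes (Lum, Dcn, Col3a1, Col1a2 and Postn) made up 8 of the 12 largest falls, and the others were Lyz1, Asb4, Epha3 and Ednrb. Ednrb, the endothelin receptor of neural crest derivatives and mesenchyme, read 3.25, 3.55 and 3.74 in KD-labelled EBs and 10.75, 10.32 and 10.27 in SCR EBs, 122-fold lower (log2 -6.93, SE 0.13, limma adjusted p = 1.3e-30). Epha3, an ephrin receptor, read 2.81, 2.76 and 2.82 in KD-labelled EBs and 9.74, 9.98 and 9.99 in SCR EBs. Lyz1, a lysozyme gene close in sequence to that of macrophages, read 2.9, 2.73 and 3.14 in KD-labelled EBs and 11.19, 10.73 and 9.88 in SCR EBs, 205-fold lower. The KD-labelled values of these 3 genes lie near the low end of the range of the arrays, 1.84 to 14.25. Asb4, an ankyrin-repeat protein of a ubiquitin ligase, fell by 7.11 on the log2 scale, Postn, the matricellular protein periostin, by 7.06, and Col1a2, a chain of type I collagen, by 7.64. For all 12 of the largest falls the arrays of the lines did not overlap, as the naming rule required, and the WT EBs were on the SCR side for the matrix genes but between the lines for Tnnt2 (9.13, 10.74 and 9.04) and Myl2 (9.76, 11.18 and 8.43).

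**Figure D2:**
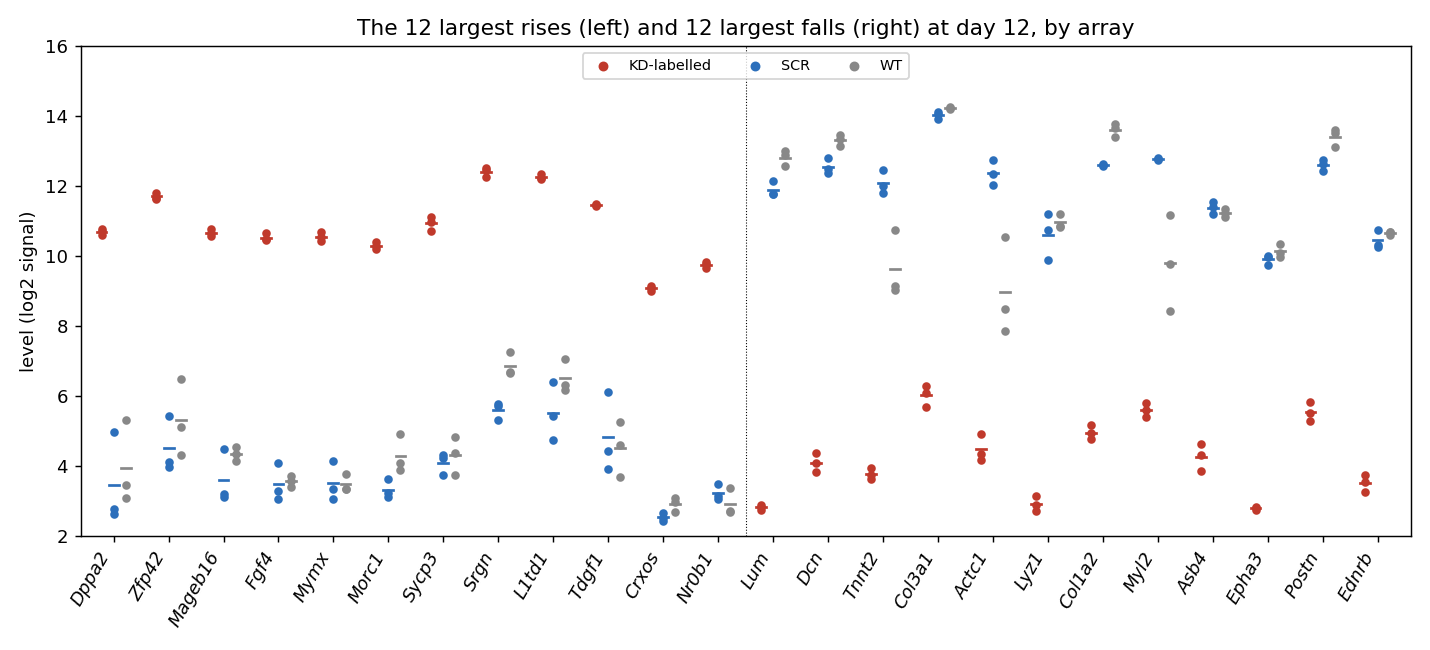
Log2 level on each array of day 12 for the 12 largest rises (left of the dotted line) and the 12 largest falls (right of it), with 3 points each for KD-labelled, SCR and WT EBs and a bar at each mean. The KD-labelled points stand apart from the SCR points for every gene shown, and WT points lie near the SCR points for most genes but lower than SCR for Tnnt2, Actc1 and Myl2.

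All 9 measured core pluripotency factors rose, with a median difference of 4.07 beside 0.10 over all genes. Their mean level was 10.71, 10.74 and 10.69 in KD-labelled EBs, 5.95, 6.31 and 6.97 in SCR EBs and 6.32, 6.86 and 6.22 in WT EBs. In ESCs the same mean was 11.22, 11.20 and 11.31 in the KD-labelled line and 11.22, 11.37 and 11.43 in SCR, so KD-labelled EBs of day 12 stood within 1 log2 unit of undifferentiated cells. Pou5f1, the POU-domain factor without which the inner cell mass is lost, read 11.2, 11.5 and 11.32 in KD-labelled EBs and 5.23, 5.31 and 6.46 in SCR EBs. Nanog, the homeodomain factor of the same network, read 11.09, 10.94 and 10.97 in KD-labelled EBs and 3.59, 4.21 and 6.25 in SCR EBs. Both were high on every KD-labelled array, and on SCR array 3 both stood above the other SCR arrays. Sox2, which neural cells also express, differed less, with 11.78, 11.49 and 11.73 in KD-labelled EBs and 9.37, 9.1 and 9.34 in SCR EBs (log2 2.40). Sall4, a zinc-finger factor of the network, differed by 3.22.

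Of 12 naive pluripotency transcription factors 10 rose and none fell (median 4.09). Esrrb, an orphan nuclear receptor, read 9.29, 9.58 and 9.27 in KD-labelled EBs and 3.91, 3.13 and 4.19 in SCR EBs, and the Krüppel-like factors Klf2 and Klf4 differed by 4.00 and 2.13. Klf5 (log2 0.37, adjusted p = 0.105) and the nuclear receptor Nr5a2 (log2 0.44, adjusted p = 0.105) did not pass the test. All 10 other ESC-associated transcripts rose (median 5.63). Dppa5a, an RNA-binding protein of pluripotent cells, read 13.82, 13.84 and 13.86 in KD-labelled EBs and 7.34, 7.55 and 9.65 in SCR EBs, where array 3 was again the highest. Dppa3, a maternal factor that guards methylation after fertilisation, rose by 2.15 over SCR EBs, but KD-labelled EBs differed from WT EBs by 0.39 (adjusted p = 0.262), and in ESCs it was lower in the KD-labelled line by 2.14.

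A pair of the largest rises, chosen after their values were seen, carries the octamer ATGCAAAT, which POU factors such as Pou5f1 bind. The promoter windows were taken from RefSeq (GRCm38.p6), each 300 bases from 250 bases before to 50 bases after the start of the gene, and both strands were searched. Zfp42, a zinc-finger factor used as a marker of naive cells, has the octamer on the reverse strand in chr8:43306960-43307259, and Mageb16, an X-linked gene of the MAGE family, has it in chrX:79671386-79671685. Both genes lie on the minus strand, the sequences run 5′ to 3′ along the gene, and capitals mark the octamer.
Zfp42: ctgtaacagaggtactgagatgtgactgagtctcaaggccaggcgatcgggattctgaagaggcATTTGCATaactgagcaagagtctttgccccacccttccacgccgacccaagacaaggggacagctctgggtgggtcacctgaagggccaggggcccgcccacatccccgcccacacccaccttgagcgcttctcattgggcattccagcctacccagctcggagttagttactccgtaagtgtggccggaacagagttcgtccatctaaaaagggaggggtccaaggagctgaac
Mageb16: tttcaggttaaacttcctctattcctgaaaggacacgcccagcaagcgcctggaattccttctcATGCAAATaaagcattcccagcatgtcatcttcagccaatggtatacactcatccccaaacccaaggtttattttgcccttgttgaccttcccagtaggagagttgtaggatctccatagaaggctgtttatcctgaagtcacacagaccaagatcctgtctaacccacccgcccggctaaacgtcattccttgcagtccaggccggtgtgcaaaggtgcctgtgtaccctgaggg
In both windows the match begins 186 bases before the start. The octamer was present in 570 of 32851 promoter windows (1.74%), in none of the 10 windows of the core factors and in 1 of 11 windows of the naive factors. Among measured genes, 30% of the 243 with an octamer in the window rose, beside 31.3% of those without one.

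Genes of the primed epiblast, the state that follows naive pluripotency at implantation, were also higher in KD-labelled EBs: 8 of 10 rose and 1 fell (median 2.00). In ESCs the same list was lower in the KD-labelled line, with a median of -2.05 and 7 members called lower (11.3% of all genes were). Fgf5, the ligand that marks the primed epiblast, read 7.45, 7.81 and 7.45 in KD-labelled EBs and 3.32, 5 and 3.97 in SCR EBs (log2 3.47), while in ESCs the difference was -3.06. Otx2, a homeobox factor of the anterior epiblast, read 10.29, 10.55 and 10.29 in KD-labelled EBs and 5.74, 6.63 and 6.43 in SCR EBs, against a difference of -1.23 in ESCs. Pou3f1, a POU factor of the primed state, read 7.73, 7.43 and 7.68 in KD-labelled EBs and 5.83, 5.32 and 5.53 in SCR EBs, and its difference in ESCs was -3.07. These 3 genes thus changed sides between undifferentiated cells and day 12. Sall2, a paralogue of Sall4, was the member that fell (-1.29), and the Wnt effector Lef1 did not pass the test (0.03).

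The Nodal and FGF pathways carry signals between pluripotent cells, and several ligands and feedback inhibitors of both were higher. Of 12 Nodal pathway genes 7 rose and 3 fell (median 0.74). Nodal itself read 9.96, 9.77 and 9.96 in KD-labelled EBs and 4.89, 6.11 and 5.55 in SCR EBs (log2 4.38, SE 0.24). Lefty2, a secreted inhibitor and target of Nodal, read 8.77, 8.28 and 8.4 in KD-labelled EBs and 3.68, 3.07 and 4.32 in SCR EBs, although KD-labelled ESCs lay below SCR ESCs by 2.65. For both genes all KD-labelled arrays lay above all SCR arrays, as they did for 36.1% of all genes. The related inhibitor Lefty1 rose by 2.59 and the transcriptional partner Foxh1 by 3.13. The effector Smad3 (-1.97) and the receptor Acvr2a (-1.80) fell, and the effector Smad2 did not pass the test (0.22).

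Of 16 FGF pathway genes 9 rose and 3 fell (median 0.56). Fgf4, the ligand that ESCs secrete and that prepares them for differentiation, read 10.45, 10.65 and 10.48 in KD-labelled EBs and 3.29, 3.07 and 4.1 in SCR EBs (log2 7.04, SE 0.20, limma adjusted p = 1.1e-25). Etv5, an ETS factor induced by FGF signals, read 10.78, 10.74 and 10.65 in KD-labelled EBs and 7.62, 8.15 and 7.87 in SCR EBs. Both genes were separated between the lines on every array, as were 63.2% of all genes. Fgf8, a ligand of the primitive streak, rose by 1.83, and the feedback inhibitor Spry4 by 1.63. Of the receptors, Fgfr2 read 7.67, 7.48 and 7.5 in KD-labelled EBs and 9.22, 9.59 and 9.64 in SCR EBs (log2 -1.93), and Fgfr1 fell by 0.87.

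Germline genes, normally methylated and silent in somatic cells, were higher in KD-labelled EBs: 16 of 18 rose and none fell, with a median of 3.42. In ESCs 5 of the 18 were higher in the KD-labelled line (12.3% of all genes were) and the median was 0.26. Their mean level was 6.97, 6.92 and 6.92 in KD-labelled EBs, 3.19, 3.29 and 3.46 in SCR EBs and 3.67, 3.89 and 3.69 in WT EBs, beside 6.70, 6.58 and 6.56 in KD-labelled ESCs. Mael, which acts in piRNA biogenesis, read 8.4, 8.43 and 8.32 in KD-labelled EBs and 2.48, 2.59 and 2.91 in SCR EBs (log2 5.72, SE 0.15, limma adjusted p = 2.0e-26). Ddx4, the Vasa RNA helicase, read 7.65, 7.84 and 7.67 in KD-labelled EBs and 2.39, 2.5 and 3.19 in SCR EBs. Taf7l, a germ-cell form of a TFIID subunit, read 6.77, 6.64 and 6.89 in KD-labelled EBs and 3.38, 3.29 and 3.27 in SCR EBs. None of these genes overlapped between the lines, which also held for 63.2% of all genes. The RNA-binding protein Dazl rose by 2.24, Stk31 by 4.17 and Tdrd12 by 4.13, while the piRNA-pathway genes Tdrd1 (0.20, adjusted p = 0.181) and Asz1 (0.22, adjusted p = 0.173) did not pass the test.

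Many germline promoters hold the E-box CACGTG, the element read by the repressor pair MGA and MAX in ESCs, and this motif was picked for display after values were seen. Of 20 RefSeq windows (GRCm38.p6) of 15 list members, 12 held CACGTG (60%; 9 of 15 genes), beside 7.15% of all 32851 windows and 11.3% of windows with at least 15 CpG dinucleotides. The sequence is its own reverse complement, so a match counts for both strands. Windows of 3 genes that rose and of Tdrd1, which did not pass the test, are shown with CACGTG in capitals: Sycp3 in chr10:88459337-88459636 (plus strand), Mael in chr1:166238695-166238994 (minus strand), Taf7l in chrX:134476441-134476740 (minus strand) and Tdrd1 in chr19:56825959-56826258 (plus strand).
Sycp3: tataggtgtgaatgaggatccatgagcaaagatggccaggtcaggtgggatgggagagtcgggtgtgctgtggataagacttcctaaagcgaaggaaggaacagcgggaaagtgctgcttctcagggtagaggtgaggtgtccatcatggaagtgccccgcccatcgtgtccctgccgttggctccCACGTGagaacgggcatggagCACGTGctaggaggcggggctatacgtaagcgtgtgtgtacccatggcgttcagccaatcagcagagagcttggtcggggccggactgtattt
Mael: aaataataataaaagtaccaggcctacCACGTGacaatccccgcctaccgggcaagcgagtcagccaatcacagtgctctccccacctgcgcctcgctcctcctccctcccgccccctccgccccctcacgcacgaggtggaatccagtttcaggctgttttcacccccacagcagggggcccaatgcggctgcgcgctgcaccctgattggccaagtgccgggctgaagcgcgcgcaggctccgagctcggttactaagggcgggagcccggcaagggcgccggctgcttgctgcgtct
Taf7l: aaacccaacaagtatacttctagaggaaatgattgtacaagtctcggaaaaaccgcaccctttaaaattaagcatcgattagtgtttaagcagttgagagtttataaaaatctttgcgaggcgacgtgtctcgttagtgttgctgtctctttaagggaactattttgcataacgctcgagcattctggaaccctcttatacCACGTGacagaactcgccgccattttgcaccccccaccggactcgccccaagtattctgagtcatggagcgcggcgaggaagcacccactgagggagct
Tdrd1: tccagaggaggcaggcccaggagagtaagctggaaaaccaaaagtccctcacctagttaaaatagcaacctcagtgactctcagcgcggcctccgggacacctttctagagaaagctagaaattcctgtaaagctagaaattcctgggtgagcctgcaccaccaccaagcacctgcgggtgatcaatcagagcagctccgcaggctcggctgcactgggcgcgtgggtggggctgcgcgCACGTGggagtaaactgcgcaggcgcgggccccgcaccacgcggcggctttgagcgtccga
The Sycp3 window holds 2 copies, 64 and 43 bases before the start. The single copies begin 223 bases before the start in Mael, 49 bases before it in Taf7l and 11 bases before it in Tdrd1. Among all measured genes with a window, 38.3% of the 1479 with CACGTG rose, beside 30.5% of the 12973 without it. A match is a description of the letters in the window, and binding was not measured.

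Of 10 genes listed for the 2-cell-like state, which marks a rare subset of ESCs, 5 were measured. All 5 rose, with a median of 0.73, and 4 of them were also higher in KD-labelled ESCs (median 0.61). Their mean level was low, 5.58, 5.44 and 5.27 in KD-labelled EBs and 4.29, 4.13 and 4.28 in SCR EBs. When genes with a mean under 6.18 in both lines were left out, 1 member was called higher. Usp17la, a deubiquitinating enzyme, read 6.63, 5.84 and 5.57 in KD-labelled EBs and 2.93, 2.49 and 3.06 in SCR EBs, a difference of 3.19, and 3.10 in ESCs.

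Among DNA methyltransferases and TET enzymes 5 of 9 rose and 3 fell (median 0.73). Dnmt3l, the catalytically inactive partner of the de novo enzymes, read 10.33, 10.41 and 10.32 in KD-labelled EBs and 3.8, 3.71 and 4.14 in SCR EBs (log2 6.47, SE 0.19). Tet1, which oxidises methylcytosine, read 10.84, 10.87 and 10.78 in KD-labelled EBs and 8.24, 8.2 and 8.31 in SCR EBs. Dnmt3b, a de novo enzyme, rose by 3.58, and the maintenance genes Dnmt1 and Uhrf1 by 0.73 and 1.04. Dnmt3a, the other de novo enzyme, read 10.08, 8.69 and 9.91 in KD-labelled EBs and 10.61, 10.47 and 10.57 in SCR EBs. Its fall of 0.99 was lost without KD-labelled array 2 (adjusted p = 0.12). Of the other 4 probe sets of Dnmt3a, 3 were called lower (-2.03, -2.05 and -2.77) and 1 higher (1.19). Without KD-labelled array 2, 1 of the 9 genes, the editing enzyme Apobec1 (-2.75), was called lower.

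Of 15 genes of the TRIM28 silencing machinery 8 rose and 1 fell (median 0.40). Zfp819, a KRAB zinc-finger gene of ESCs, read 6.73, 7.07 and 6.11 in KD-labelled EBs and 3.01, 3.45 and 3.54 in SCR EBs. Zfp57, which protects imprints, rose by 1.44, the methyltransferase Setdb1 by 0.88 (and by 0.87 in ESCs) and the corepressor Trim28 by 0.40. Atf7ip, a partner of Setdb1, fell by 0.64. Of 15 Polycomb group genes 7 rose and 5 fell, with a median of 0.30, which became -0.08 when genes of chromosomes 15, 19 and Y were left out. Cbx7, the chromodomain subunit of the ESC form of Polycomb complex 1, read 10.15, 9.91 and 10.15 in KD-labelled EBs and 4.95, 5.36 and 5.54 in SCR EBs. Its somatic counterpart Cbx2 fell by 0.94 and Bmi1 by 0.99. Of the complex 2 subunits, Eed rose by 1.51, Suz12 by 1.44 and Jarid2 by 1.32, and Ezh2, the methyltransferase, did not pass the test (-0.08).

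Imprinted genes, expressed from a single parental copy and many of them abundant in fetal mesenchyme, were mostly lower: 14 of 20 fell and 4 rose (median -1.71). Dlk1, a transmembrane regulator of fetal growth and adipogenesis, read 5.28, 5.75 and 5.9 in KD-labelled EBs and 11.43, 11.22 and 11.44 in SCR EBs. Igf2, the fetal growth factor, read 10.83, 10.62 and 10.74 in KD-labelled EBs and 13.77, 13.78 and 13.9 in SCR EBs. Nnat fell by 4.82, Mest by 3.14, Peg3 by 2.30 and the cell-cycle inhibitor Cdkn1c by 2.21. The members that rose included the adaptor Grb10 (2.71) and the placental genes Phlda2 (2.33) and Ascl2 (2.19), and the noncoding RNA Meg3 did not pass the test (0.02). Imprinting itself was not measured, since the arrays do not tell the parental copies apart.

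**Figure D3:**
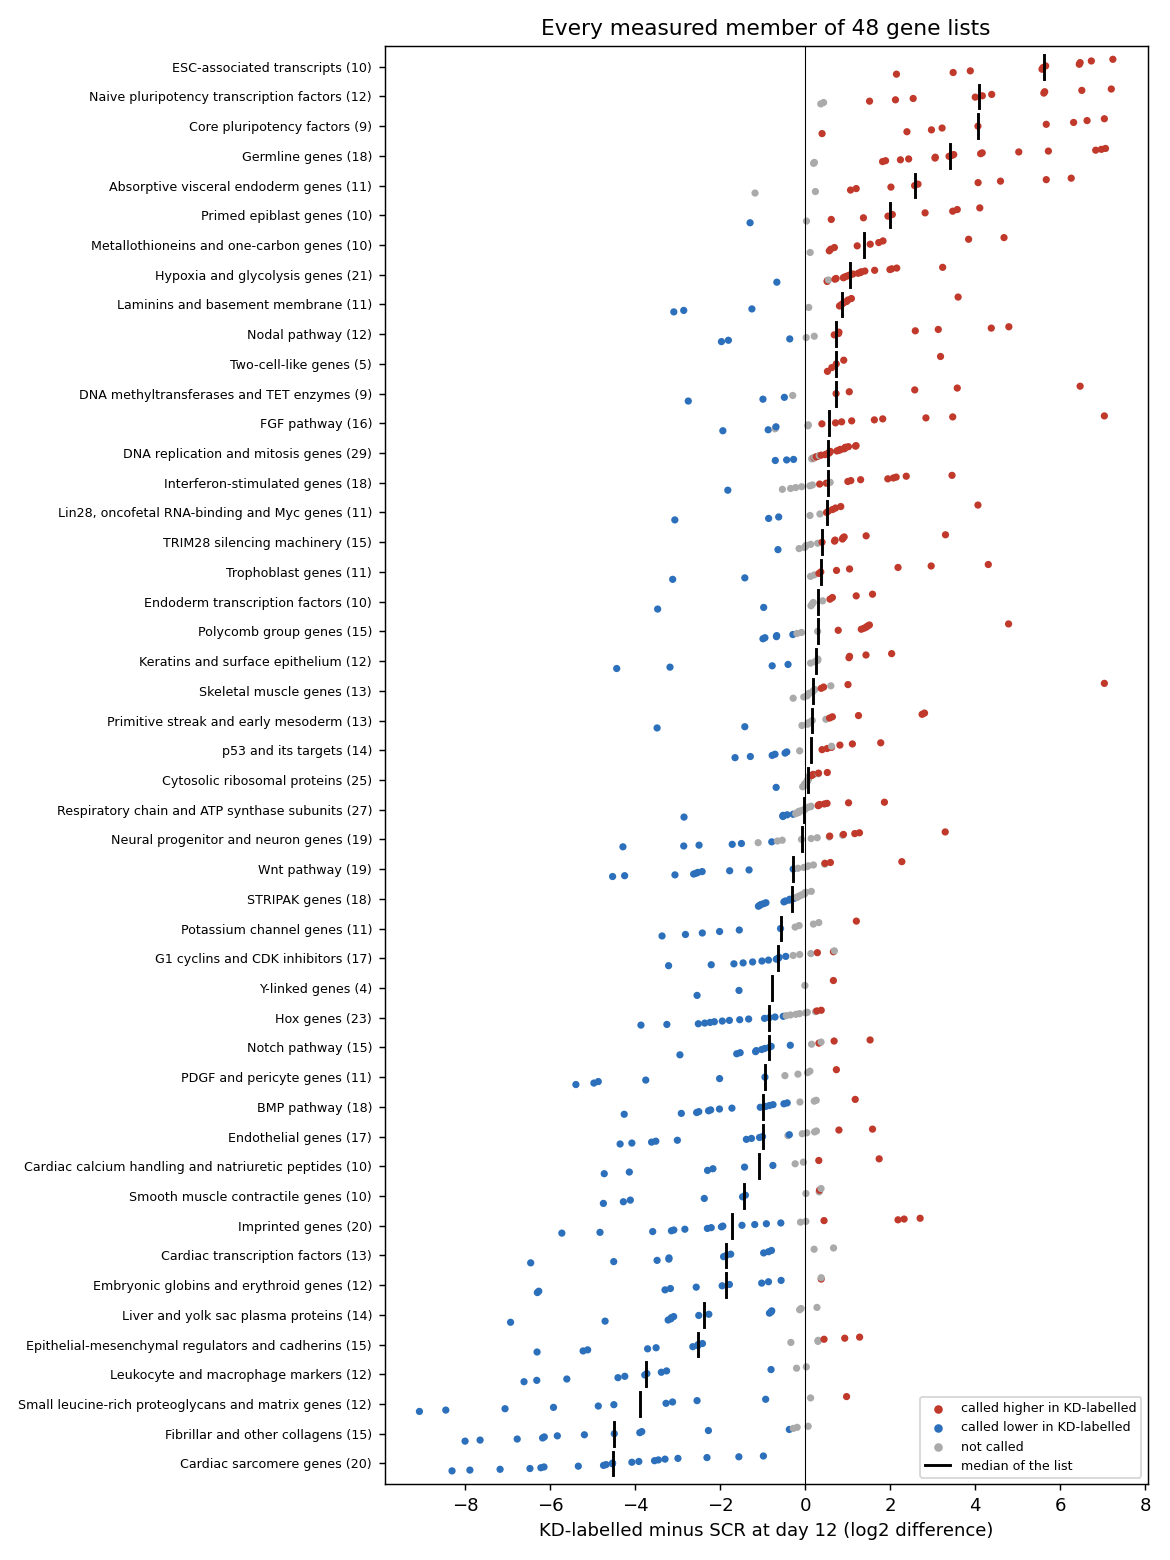
Log2 difference KD-labelled minus SCR at day 12 for every measured member of 48 gene lists (points), with the list medians as ticks. Medians run from -4.53 for cardiac sarcomere genes to 5.63 for ESC-associated transcripts, and the ribosomal and respiratory lists lie close to 0.

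All 20 cardiac sarcomere genes fell, with a median of -4.53. Their mean level was 5.28, 5.39 and 5.39 in KD-labelled EBs and 10.21, 9.64 and 10.03 in SCR EBs, against 7.05, 8.31 and 6.76 in WT EBs. In KD-labelled ESCs the mean was 5.46, 5.31 and 5.47, so that the KD-labelled EBs of day 12 were at the level of undifferentiated cells. These are averages over bulk EBs, in which fewer cells of a type and less RNA per cell cannot be told apart. The part of the higher pluripotency list in the falls of the lineage lists was not tested. Myh6, the atrial myosin heavy chain, read 5.41, 5.72 and 5.36 in KD-labelled EBs and 12.25, 11.68 and 11.97 in SCR EBs (log2 -6.47, SE 0.56, limma adjusted p = 2.5e-12). Actc1, cardiac actin, read 4.17, 4.35 and 4.92 in KD-labelled EBs, 12.73, 12.03 and 12.33 in SCR EBs and 8.5, 10.54 and 7.86 in WT EBs. Myl7, the atrial light chain, fell by 6.21 and Myl4 by 6.14. The smallest falls were those of Tcap, which caps titin at the Z-disc (-0.98), and Actn2, the Z-disc actinin (-1.56).

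SCR EBs themselves stood above WT EBs for this list, with 19 of 20 genes higher and a median of 2.89 (7.05% of all genes were higher). KD-labelled EBs stood below WT EBs in 15 of 20 genes with a median of -1.59 (23.6% of all genes were lower), and the median was -1.21 without WT array 2. The pairs share arrays, so their values are not independent.

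Of 13 cardiac transcription factors 11 fell and none rose (median -1.85). Hand2, a bHLH factor of the heart and of limb and neural crest mesenchyme, read 3.78, 3.92 and 3.31 in KD-labelled EBs, 10.32, 10.32 and 9.73 in SCR EBs and 10.87, 10.39 and 10.58 in WT EBs. Mef2c, a MADS-box activator of muscle genes, fell by 4.50, its partner Myocd by 3.48, Isl1, a marker of cardiac progenitors, by 3.20, and Tbx5 by 1.85. Nkx2-5 fell by 0.86, but KD-labelled EBs differed from WT EBs by 0.08 (adjusted p = 0.823). Hopx (0.67) and Gata4, which endoderm also expresses (0.21), did not pass the test. Against WT EBs 7 of the 13 factors were lower and 1 higher in KD-labelled EBs (median -1.01, and -0.53 without WT array 2).

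Of 10 genes of cardiac calcium handling and natriuretic peptides 6 fell and 2 rose (median -1.09). Pln, the inhibitor of the sarcoplasmic calcium pump, read 3.78, 3.84 and 3.56 in KD-labelled EBs and 8.6, 8.72 and 8.03 in SCR EBs. The sodium-calcium exchanger Slc8a1 fell by 4.13, and the natriuretic peptide gene Nppb rose by 1.74. The ryanodine receptor Ryr2 fell by 0.76 but lay above WT EBs by 1.73, and its call against SCR was lost without KD-labelled array 1 or 2 or SCR array 1 or 3 (adjusted p = 0.072 to 0.13). The call of Casq2, the calcium store protein (0.32), was lost when any 1 array other than KD-labelled array 2 was left out. Of 11 potassium channel genes 6 fell, among them Kcnd3 (-3.36) and Kcna5 (-2.81), and 1, Kcnk1, rose (1.21).

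The CArG box, the element bound by serum response factor in muscle promoters, was in 7 of 28 RefSeq windows (GRCm38.p6) of the sarcomere genes (25%; 6 of 19 genes), beside 1.63% of all windows. This motif was added to those first listed for the search. A pair of windows near the start is shown, with the box in capitals: Actc1 in chr2:114052826-114053125 and Myl7 in chr11:5898733-5899032, both on the minus strand.
Actc1: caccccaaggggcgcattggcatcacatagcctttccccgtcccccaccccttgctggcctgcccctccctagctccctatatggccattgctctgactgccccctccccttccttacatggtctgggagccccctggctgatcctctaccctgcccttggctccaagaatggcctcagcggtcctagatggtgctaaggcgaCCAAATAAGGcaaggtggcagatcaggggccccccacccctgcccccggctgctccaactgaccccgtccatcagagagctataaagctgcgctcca
Myl7: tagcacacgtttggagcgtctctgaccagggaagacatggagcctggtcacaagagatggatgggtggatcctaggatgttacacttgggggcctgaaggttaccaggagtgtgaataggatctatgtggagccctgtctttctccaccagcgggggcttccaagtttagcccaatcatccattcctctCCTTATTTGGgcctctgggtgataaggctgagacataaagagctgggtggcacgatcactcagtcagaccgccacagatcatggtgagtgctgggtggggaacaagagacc
The boxes begin 47 bases before the start in Actc1 and 61 bases before it in Myl7. The windows of Tnnt2, Myh6 and Myl2, which fell as far, held none. Among measured genes 31% of the 229 with a CArG box in the window fell, beside 24.3% of the 14223 without one.

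Connective tissue genes fell as well. Of 15 fibrillar and other collagens 12 fell and none rose (median -4.49). Their mean level was 5.01, 5.02 and 5.07 in KD-labelled EBs and 9, 9.13 and 9.17 in SCR EBs, and in WT EBs it was 9.32, 9.34 and 9.43. Col1a1, the main chain of type I collagen, read 4.68, 4.29 and 4.48 in KD-labelled EBs and 10.76, 10.6 and 10.61 in SCR EBs. Col5a2, a chain of the collagen that nucleates such fibrils, fell by 6.77, Col6a1 by 6.13 and the cartilage collagen Col9a1 by 5.19, whereas Col2a1, the main cartilage collagen, did not pass the test (-0.28). The median difference from WT EBs was -4.65.

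Of 12 small leucine-rich proteoglycans and matrix genes 10 fell and 1 rose (median -3.88). Lum, the collagen-binding proteoglycan lumican, read 2.83, 2.76 and 2.88 in KD-labelled EBs, 11.77, 12.14 and 11.77 in SCR EBs and 12.88, 12.56 and 13 in WT EBs. Its relatives Ogn and Fmod fell by 5.92 and 4.86, and fibronectin, Fn1, by 0.93. The microfibril gene Mfap5 rose by 0.98, and Sparc, which endoderm also secretes, did not pass the test (0.13).

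Basement membrane genes went the other way: 7 of 11 laminin and basement membrane genes rose and 3 fell (median 0.86). Lama1, the laminin chain of the early embryo, read 10.59, 9.76 and 10.24 in KD-labelled EBs and 6.31, 6.82 and 6.66 in SCR EBs. Lamb1 rose by 1.09 and Col4a1 by 0.86, while Lama2 of muscle (-3.09), Lama4 of vessels (-2.85) and the linker Nid1 (-1.25) fell.

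Of 15 regulators of the epithelial-mesenchymal transition and cadherins 9 fell and 3 rose (median -2.51). Vim, the intermediate filament vimentin, read 8.99, 8.65 and 9.11 in KD-labelled EBs and 12.33, 12.36 and 12.57 in SCR EBs. The transition factors Zeb2 and Snai2 fell by 5.22 and 5.11, the mesenchymal cadherin Cdh11 by 6.30 and Cdh2 by 2.52. Cdh1, the epithelial cadherin that ESCs carry too, read 11.78, 11.32 and 11.62 in KD-labelled EBs and 10.57, 10.82 and 10.53 in SCR EBs (log2 0.93). Snai1 (-0.33) and Epcam (0.31) did not pass the test.

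Smooth muscle and pericyte genes fell in part. Of 10 smooth muscle contractile genes 6 fell and 1 rose (median -1.44). Acta2, smooth muscle actin, read 7.81, 7.19 and 8.16 in KD-labelled EBs and 12.51, 12.21 and 12.67 in SCR EBs, and the kinase Mylk fell by 4.27. Myh11, the myosin heavy chain that defines the lineage, was the gene called higher (0.34). That call was lost without KD-labelled array 2 or 3 or SCR array 1 (adjusted p = 0.083 to 0.091), and another probe set of the gene was called lower. Of 11 PDGF and pericyte genes 6 fell and 1 rose. Pdgfrb, the receptor of mesenchyme and pericytes, read 5.55, 5.52 and 5.71 in KD-labelled EBs and 11.15, 11.07 and 10.73 in SCR EBs, and the pericyte genes Kcnj8 and Rgs5 fell by 4.97 and 4.86. The ligand gene Pdgfa rose by 0.74.

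Leukocyte genes fell as a group: 10 of 12 leukocyte and macrophage markers fell and none rose (median -3.75). Their mean level was 4.36, 4.33 and 4.28 in KD-labelled EBs, 8.14, 7.88 and 7.5 in SCR EBs and 8.82, 8.21 and 8.76 in WT EBs, and in KD-labelled ESCs it was 4.31, 4.26 and 4.40. Ptprc, the CD45 phosphatase of all leukocytes, read 3.38, 3.26 and 2.95 in KD-labelled EBs and 7.77, 7.43 and 7.11 in SCR EBs. C1qb, a complement chain made by macrophages, read 2.95, 2.92 and 3.13 in KD-labelled EBs and 10.11, 9.4 and 9.32 in SCR EBs (log2 -6.61, SE 0.27). Tyrobp, an adaptor of myeloid receptors, fell by 6.31. Cd68 (0.03) and Itgam (-0.20) did not pass the test, and all 12 markers were lower than in WT EBs.

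Of 12 embryonic globin and erythroid genes 10 fell and 1 rose (median -1.87). Hbb-bh1, an embryonic beta-like globin, read 3.66, 3.9 and 3.59 in KD-labelled EBs and 10.42, 8.98 and 10.64 in SCR EBs, where array 2 was the lowest. The band 3 anion exchanger Slc4a1 read 3.92, 4.21 and 4.37 in KD-labelled EBs and 8.49, 6.38 and 7.51 in SCR EBs. The blood progenitor factors Lmo2 and Tal1 fell by 2.56 and 1.95. The rise of Hba-a1, an adult alpha globin (0.38), was lost without KD-labelled array 1 or 2 or SCR array 2 or 3 (adjusted p = 0.052 to 0.13), and Gata1 did not pass the test (0.38). Globin genes are close relatives, and cross-hybridisation between them was not tested.

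Of 17 endothelial genes 10 fell and 2 rose (median -1.0). Cdh5, the cadherin of endothelial junctions, read 4.21, 4.16 and 4.6 in KD-labelled EBs and 8.59, 8.38 and 8.22 in SCR EBs, and it lay below WT EBs by 2.13. Emcn, a sialomucin of vessels, fell by 4.35, and Kdr, a VEGF receptor, by 3.51. The other VEGF receptor Flt1 rose by 0.80. Pecam1, which ESCs also express, did not differ past the threshold from SCR EBs (0.04) but was above WT EBs by 1.73. Against WT EBs 6 of the 17 genes were higher and 6 lower, with a median of -0.15 (-0.05 without WT array 2).

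Endoderm genes divided by their role. Absorptive visceral endoderm genes, which take up maternal nutrients in the yolk sac, rose in 9 of 11 cases with no fall (median 2.58). Cubn, the receptor cubilin, read 10.97, 11.1 and 10.61 in KD-labelled EBs and 3.62, 5.38 and 4.9 in SCR EBs. Amn, which carries cubilin to the membrane, read 8.58, 8.91 and 8.6 in KD-labelled EBs and 4.47, 4.49 and 4.92 in SCR EBs. Lrp2, the receptor megalin, read 10.22, 9.91 and 9.72 in KD-labelled EBs and 4.05, 4.15 and 4.63 in SCR EBs, although in ESCs it was lower in the KD-labelled line by 1.41. The 3 partners of this uptake complex were thus high on all KD-labelled arrays and overlapped with SCR on none. Over all genes, 36.1% had every KD-labelled array above every SCR array. Dab2, an endocytic adaptor, rose by 2.66.

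Liver and yolk sac plasma protein genes were lower: 11 of 14 fell and none rose (median -2.38). Alb, albumin, read 3.8, 3.62 and 3.93 in KD-labelled EBs, 10.46, 11.06 and 10.61 in SCR EBs and 7.49, 8.66 and 8.9 in WT EBs. Afp, the fetal counterpart of albumin, read 6.7, 7.43 and 6.85 in KD-labelled EBs and 11.66, 11.78 and 11.65 in SCR EBs, and the apolipoprotein gene Apoa1 fell by 3.22. Ttr, the thyroxine carrier that visceral endoderm makes early, read 11.89, 11.72 and 11.61 in KD-labelled EBs and 11.6, 12.34 and 11.56 in SCR EBs, and the ranges overlapped (-0.09, adjusted p = 0.859). Among plasma carriers, the fall of Ahsg was lost without SCR array 2 (adjusted p = 0.092), that of Apom without KD-labelled array 3 or SCR array 2, and that of Rbp4 without KD-labelled array 2 or SCR array 2. Of 10 endoderm transcription factors 4 rose and 2 fell, beside 31% and 24.6% of all genes. Sox17, a factor of early endoderm, read 10.66, 9.98 and 10.6 in KD-labelled EBs and 8.83, 9.16 and 8.49 in SCR EBs. Foxa1, a pioneer factor of definitive endoderm, read 6.11, 6.38 and 6.33 in KD-labelled EBs and 9.33, 9.87 and 10.02 in SCR EBs. The hepatic factor Hnf4a did not pass the test (0.19), and Gata6 fell by 0.97.

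Positional and lineage genes beyond the heart and endoderm moved in both directions. Of 23 Hox genes 14 fell and 2 rose (median -0.84). Hoxb3 read 4.25, 4.46 and 4.16 in KD-labelled EBs and 8.44, 8.23 and 7.78 in SCR EBs, and Hoxb2 and Hoxd10 fell by 3.25 and 2.51. The rise of Hoxb7 (0.28) was lost without KD-labelled array 2 or SCR array 3, and that of Hoxc9 (0.38) was lost when any 1 of the 6 arrays was left out. Of 19 neural progenitor and neuron genes 5 rose and 6 fell, not far from the 31% and 24.6% of all genes that did. The median of this list was -0.08 and became 0.01 when arrays were centred. Stmn2, a tubulin-binding protein of growing neurites, read 9.2, 9.19 and 9.1 in KD-labelled EBs and 5.41, 5.77 and 6.42 in SCR EBs, and the proneural factor Neurod1 rose by 1.28. Fabp7, a lipid carrier of radial glia, fell by 4.28 and Sox11 by 2.85. The neuronal tubulin Tubb3 did not pass the test (0.88).

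Of 11 trophoblast genes 7 rose and 2 fell (median 0.37). Against WT EBs 4 were higher and 3 lower (median -0.01), and SCR EBs were below WT EBs in 4 and above them in 1 (median -0.46). Plet1, a surface protein of trophoblast progenitors, read 9.66, 9.46 and 9.43 in KD-labelled EBs and 4.75, 5.33 and 5.54 in SCR EBs, and Tfap2c, shared with germ cells, rose by 2.97. The trophoblast stem cell factors Elf5 and Cdx2 fell by 3.11 and 1.42. Tpbpa, which marks the spongiotrophoblast, was called higher than in SCR EBs (0.74) but lay below WT EBs by 2.01, and its call against SCR was lost without KD-labelled array 1 (adjusted p = 0.056). Of 12 keratins and surface epithelium genes 4 rose and 4 fell, not far from the 31% and 24.6% of all genes that did. The rises were Grhl2 (2.04), Krt18 (1.43), Krt7 (1.05) and Krt8 (1.03), and the largest falls those of Krt15 (-4.43) and Trp63 (-3.18), the p63 factor of stratified epithelium. Against WT EBs 1 of the 12 was higher and 3 lower (median -0.26). SCR EBs were below WT EBs in 5 of them and above in 2 (median -0.29). Of 13 primitive streak and early mesoderm genes 5 rose and 2 fell, beside the same shares of all genes. Eomes, a T-box factor of the streak and of trophoblast, read 8.55, 8.38 and 8.52 in KD-labelled EBs and 5.08, 6.44 and 5.5 in SCR EBs, and Lhx1 and Gsc rose by 2.75 and 1.26, while Foxc1 of the later mesoderm fell by 3.48.

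Pathways that pattern mesoderm were mostly lower. Of 18 BMP pathway genes 14 fell and 1 rose (median -0.99). Bmp5, a ligand, read 4.5, 4.02 and 4.41 in KD-labelled EBs and 8.54, 8.67 and 8.48 in SCR EBs. The inhibitors Bambi and Smad6 fell by 2.91 and 2.55, the effector Smad5 by 2.22, and the target genes Id2 and Id3 by 2.27 and 2.01. Id1 fell by 0.75 but lay 0.42 from WT EBs (adjusted p = 0.07), and Msx2 was the member that rose (1.18). Against WT EBs 10 of the 18 were lower and 2 higher (median -0.69).

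Of 19 Wnt pathway genes 10 fell and 3 rose (median -0.28). Against WT EBs 8 were lower and 5 higher (median -0.11). Dkk2, a secreted modulator, read 3.1, 3.19 and 3.1 in KD-labelled EBs and 7.51, 7.46 and 8 in SCR EBs, the receptor Fzd1 fell by 4.24 and the ligand Wnt5a by 3.06. Dkk1, an inhibitor, read 8.52, 8.48 and 8.43 in KD-labelled EBs and 6.03, 6.51 and 6.06 in SCR EBs. The target gene Axin2 rose by 0.47 and Ctnnb1, beta-catenin, fell by 0.28. Of 15 Notch pathway genes 10 fell and 3 rose (median -0.84), with the ligand Jag1 at 7.37, 6.92 and 7.47 in KD-labelled EBs and 10.24, 10.18 and 10.17 in SCR EBs and the target Hey1 lower by 1.61. The ligand Dll3 rose by 1.53. Against WT EBs 3 Notch genes were higher and 3 lower, with a median of -0.13.

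Glycolysis genes rose almost throughout: 19 of 21 hypoxia and glycolysis genes rose and 1 fell (median 1.07). Their mean level was 10.22, 10.35 and 10.32 in KD-labelled EBs, 9.3, 8.71 and 9.36 in SCR EBs and 8.58, 8.55 and 8.59 in WT EBs. Pfkp, the platelet form of phosphofructokinase, read 10.13, 10.28 and 10.24 in KD-labelled EBs and 7.23, 6.41 and 7.3 in SCR EBs. Pdk1, the kinase that keeps pyruvate out of the mitochondrial cycle, read 11.01, 10.97 and 11.06 in KD-labelled EBs and 9.16, 8.69 and 9.07 in SCR EBs, where array 2 was the lowest for both genes. The glucose transporter Slc2a3 rose by 2.16 and the hexokinase Hk2 by 1.03. Ldha, lactate dehydrogenase, rose by 0.52, a call that was lost without SCR array 2 (adjusted p = 0.17), as were those of Hk1 and Tpi1, the last of which was also lost without KD-labelled array 2. Vegfa, which hypoxia also induces, was the gene that fell (-0.66), a call lost when any 1 array other than KD-labelled array 1 was left out. Against WT EBs 20 of the 21 genes were higher (median 1.65; 27.1% of all genes were higher).

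The medians of respiratory chain and ribosomal genes lay close to 0. Of 27 respiratory chain and ATP synthase subunits 7 rose and 6 fell, not far from the 31% and 24.6% of all genes that did. Their median of -0.02 became 0.08 when arrays were centred. The muscle isoform Cox6a2 fell by 2.85, whereas Cox7a1, the other muscle isoform of the list, read 8.66, 8.66 and 8.63 in KD-labelled EBs and 7.41, 6.31 and 6.63 in SCR EBs and rose. Of 25 cytosolic ribosomal proteins 5 rose and 1 fell as deposited, 15 rose with centred arrays and 1 rose after cyclic loess, and the median of 0.07 became -0.06 after cyclic loess. Without KD-labelled array 2 or SCR array 2, 3 of the 25 were called higher. Of 10 metallothionein and one-carbon genes 9 rose (median 1.38). Gldc, the glycine decarboxylase that pluripotent cells express strongly, read 11.41, 11.4 and 11.4 in KD-labelled EBs and 6.63, 6.99 and 6.55 in SCR EBs. The metallothionein Mt4 rose by 3.85, and its difference in ESCs was 3.96.

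Replication genes rose with smaller differences: 22 of 29 DNA replication and mitosis genes rose and 3 fell (median 0.55). Bub1, a kinase of the spindle checkpoint, read 11.51, 11.72 and 11.64 in KD-labelled EBs and 10.31, 10.43 and 10.53 in SCR EBs, the origin licensing factor Cdc6 rose by 1.19 and the helicase subunit Mcm3 by 1.02. The proliferation marker Mki67 fell by 0.70 and the helicase subunit Mcm4 by 0.43. The motif CCAAT, read by NF-Y, was in 21 of 25 windows of these genes (84%), beside 37.4% of all windows, and it was picked for display after values were seen. Among measured genes 31.4% of the 6070 with CCAAT in the window rose, beside 31.1% of the 8382 without it. Genes of the G1 phase, which is short in ESCs, mostly fell: 11 of 17 fell and 2 rose (median -0.63). Ccnd2, a D-type cyclin, read 8.68, 8.17 and 8.99 in KD-labelled EBs and 11.77, 11.8 and 11.9 in SCR EBs. Ccnd1 and its kinase Cdk6 fell by 1.67 and 1.46, and the E-type cyclin Ccne1 rose by 0.67.

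Of 11 genes of the Lin28, oncofetal and Myc list 6 rose and 3 fell. Lin28a, which blocks let-7 maturation, rose by 4.07 and Mycn by 0.84, whereas Hmga2, a let-7 target of fetal mesenchyme, read 9.25, 9.12 and 9.3 in KD-labelled EBs and 12.29, 12.3 and 12.27 in SCR EBs. Of 14 genes of p53 and its targets 6 rose, among them Gadd45a (1.78) and Aen (1.11), and 6 fell, among them Fas (-1.65) and Plk2 (-1.29). Over all genes 31% rose and 24.6% fell. Against WT EBs 2 of the 14 were higher and 7 lower (median -0.40), and SCR EBs were below WT EBs in 8 (median -0.515). The cyclin G gene Ccng1, lower by 0.43 with its brightest probe set, was higher by 0.44 when its probe sets were averaged. Of 18 interferon-stimulated genes 10 rose and 1 fell against SCR (median 0.55). Bst2, the antiviral protein tetherin, read 9.63, 9.73 and 9.94 in KD-labelled EBs, 6.17, 6.71 and 6.05 in SCR EBs and 8.3, 7.43 and 8.2 in WT EBs. Against WT EBs 5 of these genes were higher and 5 lower (median 0.02, and -0.14 without WT array 2), and SCR EBs were below WT EBs in 13 (median -0.72). Of 18 genes of STRIPAK complexes, in which Strip2 acts, 10 fell and none rose (median -0.31), while 24.6% of all genes fell and 31% rose. The falls include Fgfr1op2 (-1.10) and the kinase genes Stk26 (-1.04) and Stk24 (-0.97). In ESCs 8 of the 18 were lower in the KD-labelled line (11.3% of all genes were).

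**Figure D4:**
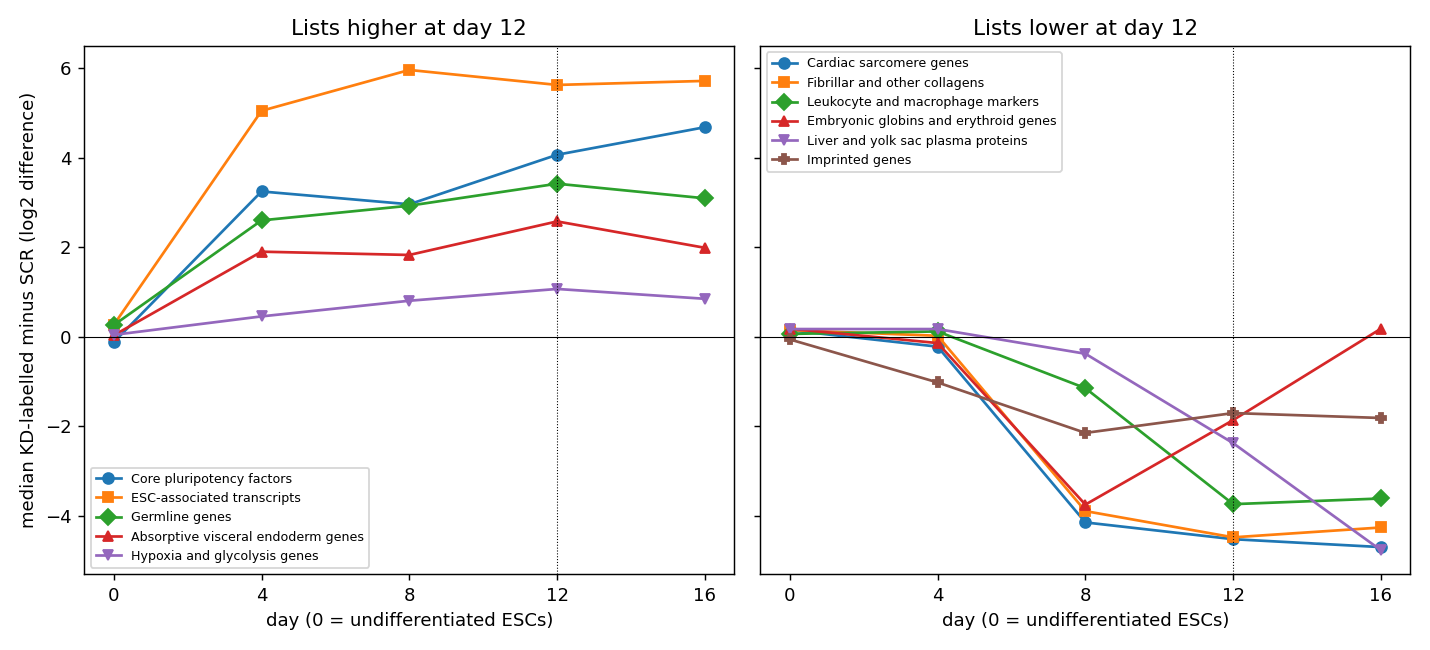
Median log2 difference KD-labelled minus SCR of gene lists in ESCs (day 0) and in EBs of 4, 8, 12 and 16 days, with lists that were higher in KD-labelled EBs of day 12 on the left and lists that were lower on the right, and a dotted line at day 12. Cardiac sarcomere genes stand at -4.15, -4.53 and -4.71 at days 8, 12 and 16, plasma protein genes at -0.38, -2.38 and -4.78, and embryonic globin and erythroid genes at -3.76, -1.87 and 0.18.

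The difference between the lines at day 12 was set against that at other stages by the interaction of line and stage. It differed from that in ESCs for 7117 genes (39.1%), 3781 more positive and 3336 more negative at day 12. Among the 3913 genes that differed at least 2-fold at day 12, 2284 were not called between the lines in ESCs, 1385 were called in the same direction and 244 in the opposite one. The most positive interactions included Sycp3 (7.52), Lefty2 (7.44) and Lrp2 (7.08), and the most negative Lum (-9.20) and Myl2 (-8.97, limma adjusted p = 4.8e-13).

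From day 8 to day 12 the difference changed for 1161 genes (6.38%), with 594 more positive and 567 more negative at day 12. Without the first 8-day array of each line it was 898 genes, 413 more positive and 485 more negative, and 802 genes were called in both fits. Albumin and macrophage genes fell further below SCR over these days. Alb differed by -0.25 at day 8 and -6.93 at day 12 (interaction -6.67, adjusted p = 3.9e-17). Mpeg1, a pore-forming protein of macrophages, read 3.62, 3.68 and 3.79 in KD-labelled EBs and 10.28, 9.77 and 9.61 in SCR EBs of day 12 and differed by -1.47 at day 8. The protease Ctss, also of macrophages, read 3.01, 3.09 and 2.98 in KD-labelled EBs and 8.81, 8.3 and 7.24 in SCR EBs of day 12, and its difference at day 8 was -0.34. Embryonic globins came closer: Hbb-bh1 differed by -10.01 at day 8, -6.30 at day 12 and 0.47 at day 16, and Hba-x by -7.87, -3.17 and 0.12. The mean level of Hbb-bh1 in KD-labelled EBs was 3.58 at day 8, 3.72 at day 12 and 4.24 at day 16, and in SCR EBs it was 13.59, 10.01 and 3.77 on the same days. The KD-labelled level stayed low on all 3 days, and the SCR level dropped over them. Wnt2, a ligand of the heart field and lung, differed by -5.61 at day 8 and -1.80 at day 12, and Tdo2, which degrades tryptophan, by -5.16 and -1.64. Without the 8-day arrays that carry an ESC tag, the day-8 difference was -0.33 in Alb, -1.49 in Mpeg1, -0.38 in Ctss, -9.89 in Hbb-bh1, -7.87 in Hba-x, -5.56 in Wnt2 and -4.92 in Tdo2, and the day-8 median was -4.58 for cardiac sarcomere genes, -0.29 for plasma protein genes and -3.58 for erythroid genes.

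From day 12 to day 16 the difference changed for 1368 genes (7.52%), with 416 (2.29%) more positive and 952 (5.23%) more negative at day 16. The most negative of these are genes of gut, liver and the acute phase. Cym, the stomach protease chymosin, read 3.93, 4.18 and 4.24 in KD-labelled EBs and 6.47, 8.68 and 9.09 in SCR EBs of day 12, with SCR array 1 lowest, and its difference was -3.96 at day 12 and -9.18 at day 16. Hpx, the haem carrier of plasma, differed by -3.05 and -7.60, and Lgals4, a lectin of the gut, by -1.26 and -6.25. Saa3, an acute-phase protein, read 3.93, 4.29 and 4.18 in KD-labelled EBs and 4.96, 4.66 and 4.83 in SCR EBs of day 12. Its small fall (-0.68, adjusted p = 0.046) was lost when any 1 of the 6 arrays was left out, whereas at day 16 the difference was -6.15.

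Set against WT EBs of the same day, KD-labelled EBs differed in 9217 genes (50.7%; 8653 without WT array 2), 3526 of them (19.4%) at least 2-fold. SCR EBs differed from WT EBs in 2678 genes (14.7%), 590 of them (3.24%) at least 2-fold. Core pluripotency genes were a median of 4.04 above WT and 4.07 above SCR, germline genes 2.96 and 3.42, and absorptive endoderm genes 1.93 and 2.58. The leukocyte list lay -4.39 from WT and -3.75 from SCR, and the matrix list -5.55 and -3.88. Plasma protein genes lay -1.02 from WT and -2.38 from SCR, and SCR EBs lay 0.70 above WT.

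Chromosome 15 stood apart from the rest of the genome. Of its 359 genes above the median level, 266 rose (74.1%) and 33 fell in KD-labelled EBs, with a median difference of 0.76, and of the 8404 such genes outside chromosomes 15, 19 and Y 35.7% rose, with a median of 0.02. On the single KD-labelled arrays the chromosome 15 median lay 0.72, 0.81 and 0.73 above the SCR mean, so all arrays showed it. The median was 0.61 in ESCs, 0.69 at day 4, 0.76 at day 8 and 0.78 at day 16, and 0.55 against WT EBs of day 12. On chromosome 19, 180 of 315 genes rose (57.1%) with a median of 0.42 at day 12 and 0.17 in ESCs, and 0.42, 0.44 and 0.38 on the single KD-labelled arrays. Named genes on chromosome 15 include Cbx7, Dab2, Foxh1, Grhl2, Krt7, Krt8 and Krt18, so all 4 keratin-list genes that rose lie on it, and Gldc, Dkk1 and Fgf8 lie on chromosome 19. Of 4 measured Y-linked genes Uty (-2.54) and Eif2s3y (-1.55) fell and Usp9y rose (0.67). Without the genes of these 3 chromosomes 9277 of 16851 genes were called, 53.5% of them higher in KD-labelled EBs. The part of the chromosome-wide shift in single genes' differences was not tested.

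**Figure D5:**
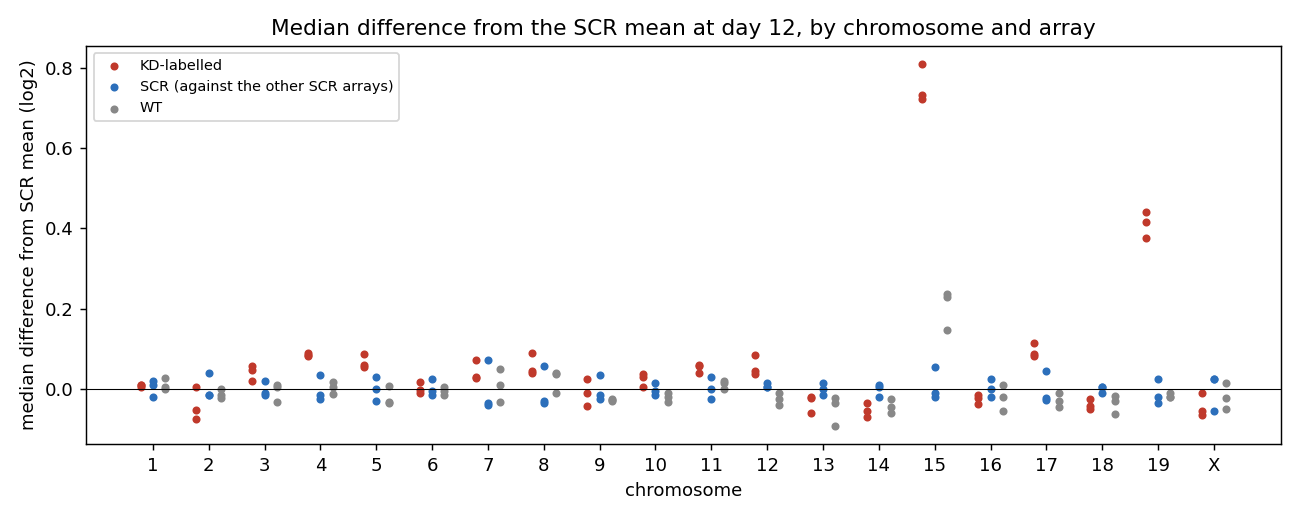
Median log2 difference from the SCR mean on each day-12 array, for the genes of each chromosome above the median level. Each SCR array is set against the other SCR arrays. KD-labelled arrays stand at 0.72, 0.81 and 0.73 for chromosome 15 and at 0.42, 0.44 and 0.38 for chromosome 19, SCR arrays near 0, and WT arrays at 0.23, 0.15 and 0.24 for chromosome 15.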

How the data were processed

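The values are the deposited log2 signals of an Affymetrix Mouse430 2.0 array, rounded by the authors to 2 decimals. Per the labels' protocols, RNA was extracted with Trizol, purified with RNeasy Plus and amplified from the 3′ end. Affymetrix Expression Console, Partek 6.6 and RMA are listed per the submitters' processing notes, without their role, and a build was not given in the sources used here. Samples were grouped by title, also the first 8-day array of each line, which another label tags as ESCs.

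Probe sets with several symbols (932) or no listed gene (9160) were left out, and 204 kept a symbol that the reference table does not list. Each of the 18193 genes was represented by its probe set of highest mean level over the 45 arrays. Of 5640 called genes with several probe sets, 416 had another probe set called the other way.

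A model of 15 group means over 45 arrays was fitted in limma 3.58.1 (R 4.3.3), with Benjamini-Hochberg adjustment over all genes and a threshold of 0.05. The number of arrays limits the precision. In simulated data for the day-12 comparison of 18193 genes, with 50 genes at each fold, 4% were called at 1.2-fold, 54% at 1.5-fold, 84% at 2-fold and 100% at 4-fold. There were 14 false calls. Few genes were changed in the simulation, whereas 55.6% were called in the data. The adjusted threshold depends on that share, so these rates do not carry over to the real comparison.

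The members and the 48 gene lists (692 of 754 names measured) were chosen with earlier results of these data known, and lists share some members. The genes named are Strip2, the 12 largest rises and falls without overlap between lines, members of the lists (the largest called, then exceptions) and the 4 furthest genes in each direction of each interaction, without names of the Rik or Gm kind. Alternatives were other scalings, probe set choices, sample sets, a filter on dim genes, a replicate block, leaving out each array, and, added after seeing the data, leaving out chromosomes 15, 19 and Y or the first 8-day array of each line.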

Additional observations from a re-analysis of the deposited data

Results flagged for a closer look

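The difference between KD-labelled and SCR cells changed with stage, by limma interaction tests, for 7117 genes between ESCs and day 12, for 1161 genes between day 8 and day 12, and for 1368 genes between day 12 and day 16. Values here are the later difference minus the earlier one on the log2 scale.

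Between ESCs and day 12 the difference grew toward KD-labelled cells by 7.52 in Sycp3, 7.44 in Lefty2, 7.08 in Lrp2 and 7.08 in Tdgf1. It changed by -9.20 in Lum, -8.97 in Myl2, -8.57 in Tnnt2 and -8.31 in Dcn, the proteoglycan decorin. For Strip2 the change was -0.79 from ESCs (adjusted p = 0.02) and -0.96 from day 8 (adjusted p = 0.025). Its difference at day 8 was 0.04, and 0.195 without the first 8-day array of each line, so it was not below SCR there.

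Between day 8 and day 12 the change was 4.70 in Hba-x, 3.81 in Wnt2, 3.71 in Hbb-bh1 and 3.53 in Tdo2, all of which were less far below SCR at day 12. It was -6.67 in Alb, -4.86 in Lyz1, -4.75 in Ctss and -4.72 in Mpeg1. Lyz1 differed by -2.81 at day 8 and by -7.68 at day 12. Without the first 8-day array of each line, which carries an ESC tag in 1 label, 898 genes were called, and the change was 4.70 in Hba-x, 3.76 in Wnt2, 3.59 in Hbb-bh1, 3.28 in Tdo2, -6.60 in Alb, -5.13 in Lyz1, -4.72 in Ctss, -4.71 in Mpeg1 and -1.12 in Strip2.

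Between day 12 and day 16 the change was 6.77 in Hbb-bh1, 5.82 in Hbb-y, 4.20 in Slc4a1 and 3.28 in Hba-x. Hbb-y, the other embryonic beta-like globin, differed by -9.78 at day 8, -6.26 at day 12 and -0.44 at day 16. The change was -5.47 in Saa3, -5.22 in Cym, -4.99 in Lgals4 and -4.55 in Hpx.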

How the results depend on the processing

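Over all alternatives, 11130 of the recomputed gene differences kept their side of the threshold, and those called among them kept their direction. A difference called in neither fit counts as kept whatever its direction. Of the others, 232 lost the call, 158 gained one and 1 was called in the opposite direction: Ccng1 was higher by 0.44 with the mean of all probe sets of a gene. The day-12 count was 10142 when the 6 arrays were fitted alone, 9983 with the 9 arrays of the day, 9998 after quantile normalization, 10100 with a trended and robust fit and 10127 with the mean of all probe sets. With all 34945 probe sets tested, 17893 differed at day 12 and 6768 at least 2-fold, and the interaction between ESCs and day 12 was called for 11845, since more features were tested. Without dim genes 10221 genes were tested and the interaction between day 12 and day 16 was called for 880. Leaving out 1 array at a time gave 9207 to 9632 calls, 3811 to 3964 of at least 2-fold, and 6601 to 6839, 892 to 1072 and 954 to 1240 interactions with ESCs, day 8 and day 16.

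Arrays with the same replicate number did not deviate together: the correlations of their deviations from the group means were 0.039, -0.16 and -0.21. Between KD-labelled and SCR arrays of different numbers they ran from -0.20 to 0.31. The highest were 0.31 for KD-labelled array 2 with SCR array 3, 0.19 for array 3 with array 1 and 0.18 for array 1 with array 2. Whether arrays shared a batch under other numbers was not tested. A block by replicate number gave 10315 calls.

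Of the list values 2222 stayed within the limits set and 223 moved. A median was judged against the spread of the arrays and by its sign, and a count of members by a fixed ratio. Without dim genes the median became -2.42 for Wnt, -2.09 for Hox, -3.24 for smooth muscle, -3.75 for pericyte, -3.17 for erythroid, -1.78 for potassium channel, -0.43 for neural, -2.05 for Y-linked, 1.62 for trophoblast, 1.63 for interferon, 0.78 for Polycomb, 0.40 for p53, 0.50 for endoderm factor, 0.64 for primitive streak and 3.82 for skeletal muscle genes, and 3 cardiac calcium genes were called lower and 1 higher. This filter kept a gene whose mean level reached 6.18 in KD-labelled or in SCR EBs of day 12. Members could thus pass only through the line where they were high, which by itself can enlarge a median. The larger medians are therefore no further evidence for these lists. Of the skeletal muscle genes left, 1 was called higher and none lower, beside a median of 0.19 over all 13. The neural median was -0.23 without KD-labelled array 1. The 3 arrays a group, a single line each and levels without detection calls limit what small or dim differences can show.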

Other observations

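Of 13 skeletal muscle genes 4 rose in KD-labelled EBs of day 12 and none fell (median 0.19). Over all genes 31% rose, so the number of rises is no trait of this list. Mymx, a small membrane protein that drives the fusion of myoblasts, read 10.43, 10.54 and 10.7 in KD-labelled EBs, 3.34, 3.07 and 4.14 in SCR EBs and 3.35, 3.77 and 3.36 in WT EBs, and in ESCs it was higher in the KD-labelled line by 1.63. Its partner in fusion, Mymk, read 3.82, 4.09 and 4 in KD-labelled EBs and 3.67, 3.48 and 3.45 in SCR EBs, a call that was lost without KD-labelled array 2 (adjusted p = 0.061). Myh3, the embryonic myosin, rose by 1.01, and Myod1, the factor that starts the skeletal programme, did not pass the test (0.19). Without KD-labelled array 2, 2 of the 13 genes were called higher.

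Of the Y-linked genes that were lower at day 12, Uty, a histone demethylase, differed by -1.47 in ESCs and Eif2s3y, a subunit of a translation initiation factor, by -1.09. Kdm5d, another Y-linked histone demethylase, differed by 0.08 in ESCs (adjusted p = 0.734) and -0.0033 at day 12 (adjusted p = 0.984).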
